A study of Mus musculus with 8 samples.

Results

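The genes described here supply cells with cysteine or break down glutathione: Cth, Cbs, Slc7a11, Chac1, Chac2, Ggct, Ggt5, Ggt7, Mat2a and Ahcy. They were followed through every probe set whose platform annotation names 1 of them alone. This gave 15 of the 45037 probe sets tested, for 9 of the 10 genes among 18193 genes in all. Mat2a, which makes S-adenosylmethionine, was not analysed here. Expression was measured on 8 Affymetrix arrays in mouse embryonic fibroblasts (MEFs), primary connective tissue cells grown out of E13.5 embryos of strain C57BL/6. The 4 WT samples were wild type and the 4 Cebpg-/- samples carried no intact copy of Cebpg, which encodes the basic leucine zipper factor C/EBPγ, a dimer partner of the stress factor ATF4. Both groups were grown in DMEM with serum and antibiotics, without any other agent, plated at passage 3 and collected 48 hours later. The labels call the samples biological replicates and do not say whether each came from its own embryo, so p-values measure only the spread between these samples.

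Cysteine is the scarce building block of glutathione, the main thiol antioxidant of cells. A cell can import it as the oxidised dimer cystine, or make it from methionine: the methionine cycle yields homocysteine, and the transsulfuration enzymes cystathionine beta-synthase and cystathionine gamma-lyase pass its sulfur on to cysteine. Glutathione is taken apart inside the cell by the gamma-glutamylcyclotransferases of the ChaC family and at the cell surface by gamma-glutamyltransferases, which returns its cysteine to the pool.

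Values are log2 expression values made with RMA, 1 per probe set and array, with a median over all arrays and probe sets of 2.73. A change is the Cebpg-/- mean minus the WT mean on that scale, given with its standard error (SE) from limma, and a probe set passed when its Benjamini-Hochberg adjusted p over all 45037 probe sets lay under 0.05. Of the 3 probe sets that name Cebpg, 1 fell (to 58.1% of WT, limma adjusted p = 0.000593), and the others did not pass; the labels do not say which probe sets cover the deletion. The fibroblast marker Vim was bright on all arrays, at 12.44 in WT and 12.46 in Cebpg-/-. Of 12 fibroblast markers 10 had a lower mean in Cebpg-/- and 4 fell, where 3.24% of all genes did. Among these 4 was Col1a1, from 10.52 to 9.47 (limma, adjusted p = 0.0105). Lum went the other way, from 3.59 to 4.66, and did not pass (limma, adjusted p = 0.132). The mean of the 12 ran from 9.17 to 9.50 on the WT and from 9.01 to 9.32 on the Cebpg-/- arrays (two-sided exact permutation p = 0.0571). The mean of 18 leukocyte markers, all of which had a higher mean in Cebpg-/-, ran from 3.41 to 5.16 on the WT and from 4.55 to 7.16 on the Cebpg-/- arrays, so that WT replicate 1 stands lowest and Cebpg-/- replicate 1 highest. None of these markers read 0. The dimmest and the brightest averaged 2.56 and 9.61, and the median change of the 18 was 1.37. By limma 14 of the 18 had an unadjusted p under 0.05, as did 5161 of 18193 genes, and 1 (Cd14) passed after adjustment. The markers moved together over the arrays, so they are not separate evidence. The genotypes overlapped in the marker mean (two-sided exact permutation p = 0.114). The part of these marker shifts in the members' changes was not tested, beyond a fit with the leukocyte mean as a covariate. In whole cultures, fewer cells of a type and less RNA per cell cannot be told apart.

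Among the 15 member probe sets 5 were lower in Cebpg-/-, where 2.78% of all probe sets were, and 2 were higher, where 4.82% were (limma, adjusted p under 0.05). The 4 values of each genotype did not overlap for 6 lower and 2 higher member probe sets, against 6.31% and 8.71% of all probe sets. The median change was -0.18 over the members and -0.02 over all probe sets. By gene, with the brightest probe set standing for each, Cth, Chac1 and Slc7a11 fell, Chac2 and Ggct rose, and Cbs, Ggt5, Ggt7 and Ahcy did not pass. In this count per gene 3.24% of 18193 genes were lower and 7.11% higher. The genes were listed with earlier results of these data known, so their counts describe them and are no independent evidence.

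**Figure D1:**
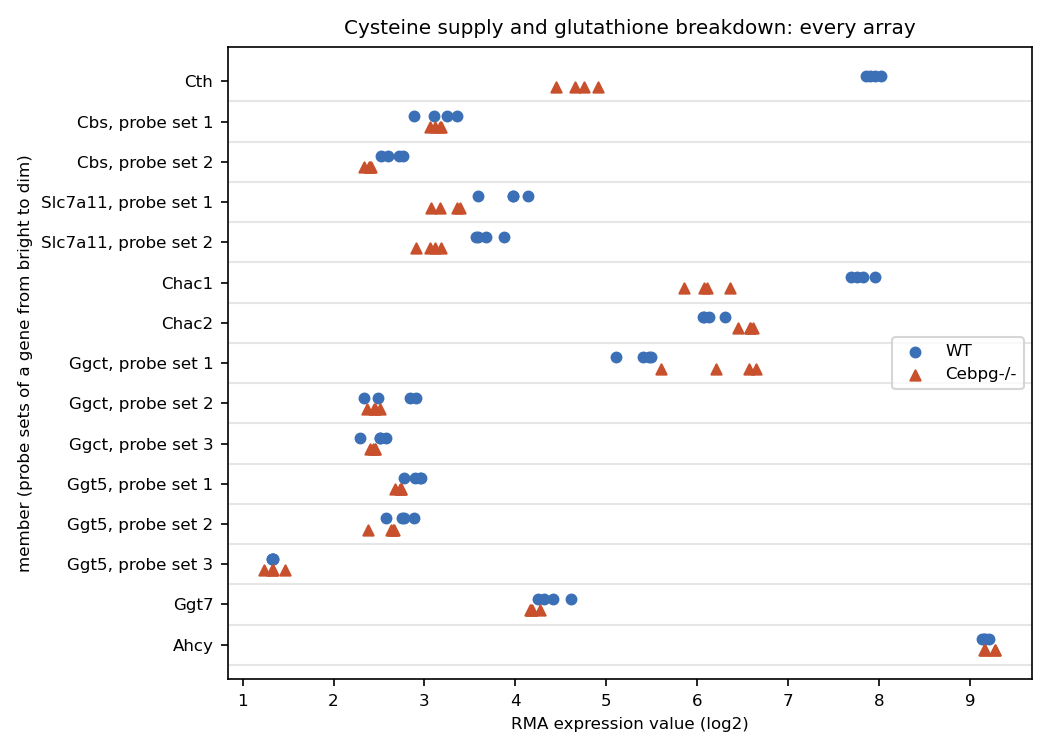
RMA expression values (x axis, log2) of the 15 member probe sets (y axis) on every array, with WT as circles and Cebpg-/- as triangles, 4 of each. The genotypes stand far apart for Cth and Chac1, less far for Slc7a11, and in the opposite order for Chac2 and the brightest Ggct probe set.

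Of the transsulfuration genes, the one for the last step fell. Cth encodes cystathionine gamma-lyase, which cleaves cystathionine to release cysteine. Its probe set read 7.86, 7.90, 7.96 and 8.02 on WT replicates 1 to 4, and 4.45, 4.91, 4.66 and 4.76 on Cebpg-/- replicates 1 to 4. The WT arrays were nearly equal, and every Cebpg-/- array lay far below all of them. The mean fell from 7.94 ± 0.07 to 4.69 ± 0.19 (SD, n = 4), a change of -3.24 ± 0.09 (SE; limma, adjusted p = 1.83e-07), to 10.6% of the WT level. Of all 45037 probe sets, it had the fall of rank 2 by size. Leaving out each array in turn moved the change between -3.31 and -3.16.

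Cbs encodes cystathionine beta-synthase, which makes the substrate of Cth from homocysteine and serine. Both of its probe sets were dim, and 55.3% and 46.5% of all probe sets were dimmer. The brighter read 3.25, 3.11, 3.36 and 2.88 in WT and 3.18, 3.12, 3.17 and 3.06 in Cebpg-/-, so the groups overlapped. Its change was -0.02, with a 95% interval from -0.23 to 0.20 (limma, adjusted p = 0.938). The dimmer read 2.76, 2.72, 2.52 and 2.60 in WT and 2.33, 2.41, 2.39 and 2.40 in Cebpg-/-. It lay below in all 4 Cebpg-/- samples, with a change of -0.26 ± 0.07 (SE; limma, adjusted p = 0.0389), but it passed in only 2 of 8 fits that leave out 1 array. It missed the threshold without WT replicate 1 (adjusted p = 0.109) or 2 (0.0846), or Cebpg-/- replicate 1 (0.111), 2 (0.0575), 3 (0.0925) or 4 (0.0813). It also missed it after quantile normalization (0.0743) or subtraction of array medians (0.0546), with an intensity trend and robust variances (0.0548) and with the leukocyte marker mean as a covariate (0.364), and each of these left 4 or fewer lower member probe sets. Values this close to the middle of the scale allow no firm statement on the level of Cbs, since no background call could be made.

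The planned difference of Cth and Cbs on the same array was lower in Cebpg-/- by 3.23 (two-sided exact permutation p = 0.0286, the smallest that 4 against 4 samples allow, and 0.0571 after adjustment over the 4 pairs tested). It follows Cth, whose own change was -3.24, and says nothing more about Cbs.

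The methionine cycle upstream was measured through Ahcy, the hydrolase that frees homocysteine from S-adenosylhomocysteine. Ahcy was among the brightest probe sets, with 96.7% of all probe sets dimmer. It read 9.17, 9.15, 9.21 and 9.13 in WT and 9.16, 9.28, 9.28 and 9.15 in Cebpg-/-, and the groups overlapped. Its change was 0.05, with a 95% interval from -0.07 to 0.18 (limma, adjusted p = 0.618), which leaves out a change of the size seen in Cth. The pair planned with Mat2a could not be formed.

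Transcripts of the cystine importer fell. Slc7a11 encodes xCT, the light chain of the exchanger that takes up cystine in return for glutamate. Its brighter probe set read 4.14, 3.59, 3.97 and 3.97 in WT and 3.17, 3.07, 3.36 and 3.39 in Cebpg-/-. The other read 3.57, 3.59, 3.88 and 3.68 in WT and 3.12, 3.06, 2.91 and 3.18 in Cebpg-/-. Both sets of Cebpg-/- values lay wholly below WT, and the probe sets agreed in the size of the change: -0.67 ± 0.12 (SE; limma, adjusted p = 0.00973) and -0.62 ± 0.09 (adjusted p = 0.00353). Both passed in all 8 fits that leave out 1 array. Without both WT replicate 1 and Cebpg-/- replicate 1, the first was at -0.57 and lost its call (limma, adjusted p = 0.0963). The second kept it, at -0.67 (adjusted p = 0.0311). With the leukocyte marker mean added to the fit as a covariate the changes were -0.64 and -0.66, and the call was lost for the first (adjusted p = 0.115) and kept for the second (adjusted p = 0.034). These values lie low on the scale, though 59.5% and 57.6% of all probe sets were dimmer. RMA compresses differences of dim probe sets, so the change of the transcript may be understated, which was not tested.

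Slc3a2, the heavy chain that carries xCT to the membrane and also serves other amino acid exchangers, fell less. It read 9.25, 9.18, 9.37 and 9.36 in WT and 9.06, 8.99, 8.95 and 9.02 in Cebpg-/-, without overlap. The change was -0.29 ± 0.06 (SE; limma, adjusted p = 0.0244), and 3 of 8 fits that leave out 1 array kept the call. It missed the threshold without WT replicate 1 (adjusted p = 0.0583) or 3 (0.0674), or Cebpg-/- replicate 1 (0.0516), 3 (0.0742) or 4 (0.0578). Within arrays, the light chain lay lower against the heavy chain by 0.39 in Cebpg-/-, but the groups overlapped and the difference did not pass (two-sided exact permutation p = 0.0571, adjusted 0.0762 over 4 pairs).

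The stretch upstream of Slc7a11 is shown because it holds 2 copies of an 8-base word. C/EBP-ATF response elements, to which dimers of ATF4 with C/EBP factors can bind, hold the core TGATGNAA. The 250 bases before the start of Slc7a11 lie on the minus strand at chr3:50443614-50443863 (GRCm38.p6, RefSeq), printed 5′ to 3′ with matches to TGANGCAA on either strand in capitals.
Slc7a11: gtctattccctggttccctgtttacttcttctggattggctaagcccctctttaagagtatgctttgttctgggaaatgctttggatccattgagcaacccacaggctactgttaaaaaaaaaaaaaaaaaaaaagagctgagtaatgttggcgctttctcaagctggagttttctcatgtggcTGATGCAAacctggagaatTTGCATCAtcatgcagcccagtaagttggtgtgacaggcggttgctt
Reading along the gene, TGATGCAA begins 66 bases before the start, and its reverse complement, TTGCATCA, begins 47 bases before it. Among 32851 mouse promoter windows of this length, several for some genes, 0.791% held TGATGCAA on either strand, and 3.45% held TGATGNAA, which includes it. Whether a factor binds there was not measured.

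Inside the cell, the ChaC enzymes split glutathione into 5-oxoproline and cysteinylglycine, and their genes moved in opposite directions. Chac1 is the inducible member, known as a target of ATF4 and CHOP. It read 7.76, 7.69, 7.95 and 7.82 in WT and 5.86, 6.36, 6.11 and 6.08 in Cebpg-/-. All Cebpg-/- arrays were lower, with replicate 2 nearest to WT. The change was -1.70 ± 0.10 (SE; limma, adjusted p = 6.43e-05), to 30.8% of the WT level, and it passed in all 8 fits that leave out 1 array (-1.78 to -1.62). It had rank 14 among the falls of all probe sets.

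Chac2, a slower enzyme of the same family that is expressed without stress, rose. It read 6.08, 6.31, 6.06 and 6.13 in WT and 6.61, 6.45, 6.58 and 6.58 in Cebpg-/-. The groups did not overlap, and the highest WT value and the lowest Cebpg-/- value were both those of replicate 2. The change was 0.41 ± 0.07 (SE; limma, adjusted p = 0.00852), to 133% of the WT level. The call held in all 8 fits that leave out 1 array (adjusted p up to 0.0337). It was lost with the leukocyte marker covariate (0.33, adjusted p = 0.131) and without both WT replicate 1 and Cebpg-/- replicate 1 (0.37, adjusted p = 0.0982), a fit in which 0.471% of all probe sets were lower and 0.699% higher.

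Within arrays, Chac1 against Chac2 was lower in Cebpg-/- by 2.11. Most of this is the fall of Chac1, at -1.70, beside the rise of 0.41 in Chac2. With the WT mean set to 0, WT arrays ran from -0.28 to 0.23 and Cebpg-/- arrays from -2.41 to -1.75. The two-sided exact permutation test gave the smallest p that this design allows, p = 0.0286, and 0.0571 after adjustment over 4 pairs.

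**Figure D2:**
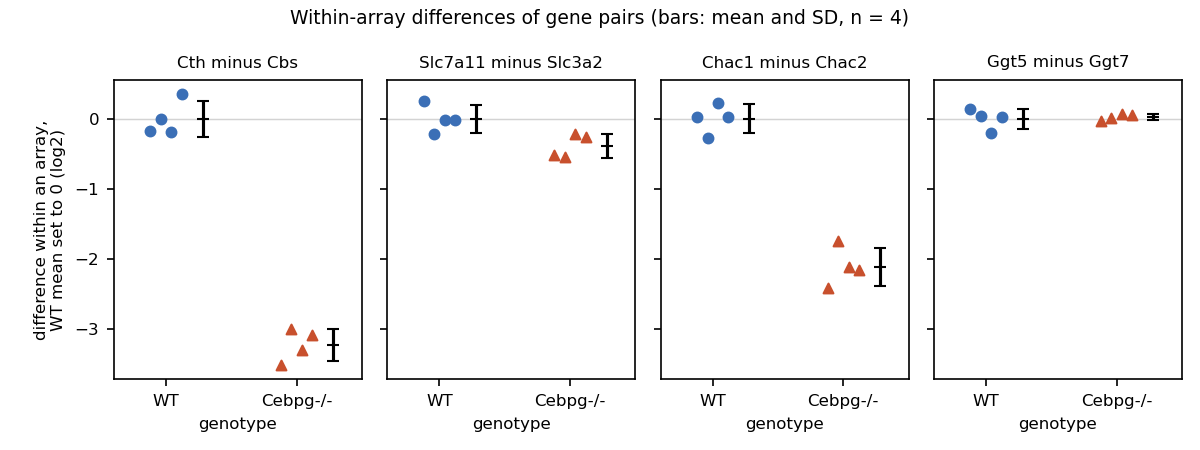
Difference between the log2 values of 2 genes on the same array (y axis), with the WT mean of each pair set to 0, for WT (circles) and Cebpg-/- (triangles); bars give mean and SD, n = 4. Chac1 against Chac2 separates the genotypes, at -2.11, mostly through Chac1, whose own change was -1.70 (Chac2 0.41). Ggt5 against Ggt7 stays near 0. Cth against Cbs, at -3.23, follows Cth, since the Cbs probe set used, itself dim, changed by -0.02. No pair passed after adjustment (two-sided exact permutation, adjusted p = 0.0571 or more).

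The upstream stretches of both ChaC genes are shown because the genes share a function and moved in opposite directions. Each is 250 bases long and printed 5′ to 3′ from RefSeq on GRCm38.p6, with matches to TGANGCAA on either strand in capitals. Chac1 lies on the plus strand at chr2:119350992-119351241 and Chac2 on the minus strand at chr11:30986366-30986615.
Chac1: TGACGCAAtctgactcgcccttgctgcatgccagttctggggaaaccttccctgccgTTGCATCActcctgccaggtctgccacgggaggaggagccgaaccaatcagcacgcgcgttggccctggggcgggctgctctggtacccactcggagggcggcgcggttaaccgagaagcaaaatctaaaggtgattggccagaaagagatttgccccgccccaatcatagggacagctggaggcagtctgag
Chac2: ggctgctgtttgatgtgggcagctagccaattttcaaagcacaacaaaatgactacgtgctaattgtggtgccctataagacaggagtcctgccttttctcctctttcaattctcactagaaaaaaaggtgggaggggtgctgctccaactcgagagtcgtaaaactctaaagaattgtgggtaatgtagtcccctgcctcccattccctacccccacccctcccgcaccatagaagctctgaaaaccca
Chac1 holds TTGCATCA, beginning 193 bases before its start, and TGACGCAA at the first base of the window. The Chac2 window holds no match. The wider word TGANGCAA, chosen after the sequences had been seen, occurs in 3.12% of the 32851 windows. Promoters of 8 of the 10 genes were matched by symbol, without Cth and Ggt5, and of these 8 only Slc7a11 and Chac1 hold TGATGNAA or TGANGCAA. The word TGACNNNGC, the core to which NRF2 binds with small MAF proteins, occurs in 10.2% of windows and among these 8 only upstream of Ggct. No match says only that these letters are not in this window.

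Ggct encodes gamma-glutamylcyclotransferase, which turns gamma-glutamyl amino acids into 5-oxoproline and a free amino acid. Its brightest probe set read 5.11, 5.47, 5.40 and 5.49 in WT and 6.65, 5.60, 6.57 and 6.21 in Cebpg-/-. The groups did not overlap, but Cebpg-/- replicate 2 lay just above the highest WT array and far below the other Cebpg-/- arrays. The change was 0.89 ± 0.20 (SE; limma, adjusted p = 0.0283), the least precise among the called members. Only 3 of 8 fits that leave out 1 array kept the call. It missed the threshold without WT replicate 1 (adjusted p = 0.0893) or 3 (0.0697), or Cebpg-/- replicate 1 (0.0791), 3 (0.0811) or 4 (0.0664), and with an intensity trend and robust variances (0.0559). The other Ggct probe sets lay below the median of the scale, and their changes of -0.20 and -0.04 missed the threshold (limma, adjusted p = 0.353 and 0.803).

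The values of Ggct ran beside those of the leukocyte markers. On Cebpg-/- replicates 1 to 4 the mean of the 18 markers was 7.16, 4.55, 6.42 and 6.00, which puts the arrays in the same order as Ggct. On WT replicates 1 to 4 it was 3.41, 5.01, 4.97 and 5.16, again in the order of Ggct. With the marker mean as a covariate the change of Ggct was 0.40 ± 0.11 (SE) and missed the threshold (limma, adjusted p = 0.158). Cth ran the other way among the Cebpg-/- arrays, lowest on replicate 1 and highest on replicate 2. Among the WT arrays, Cth and the marker mean were both lowest on replicate 1 and highest on replicate 4. Of the Cebpg-/- arrays, replicate 2 alone lay within the WT range of marker means. In the fit with the covariate far fewer probe sets passed at all, 0.435% lower and 0.677% higher. Cth, at -3.12 (limma, adjusted p = 5.05e-06), Chac1, at -1.55 (adjusted p = 0.000941), and the dimmer Slc7a11 probe set still passed.

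**Figure D3:**
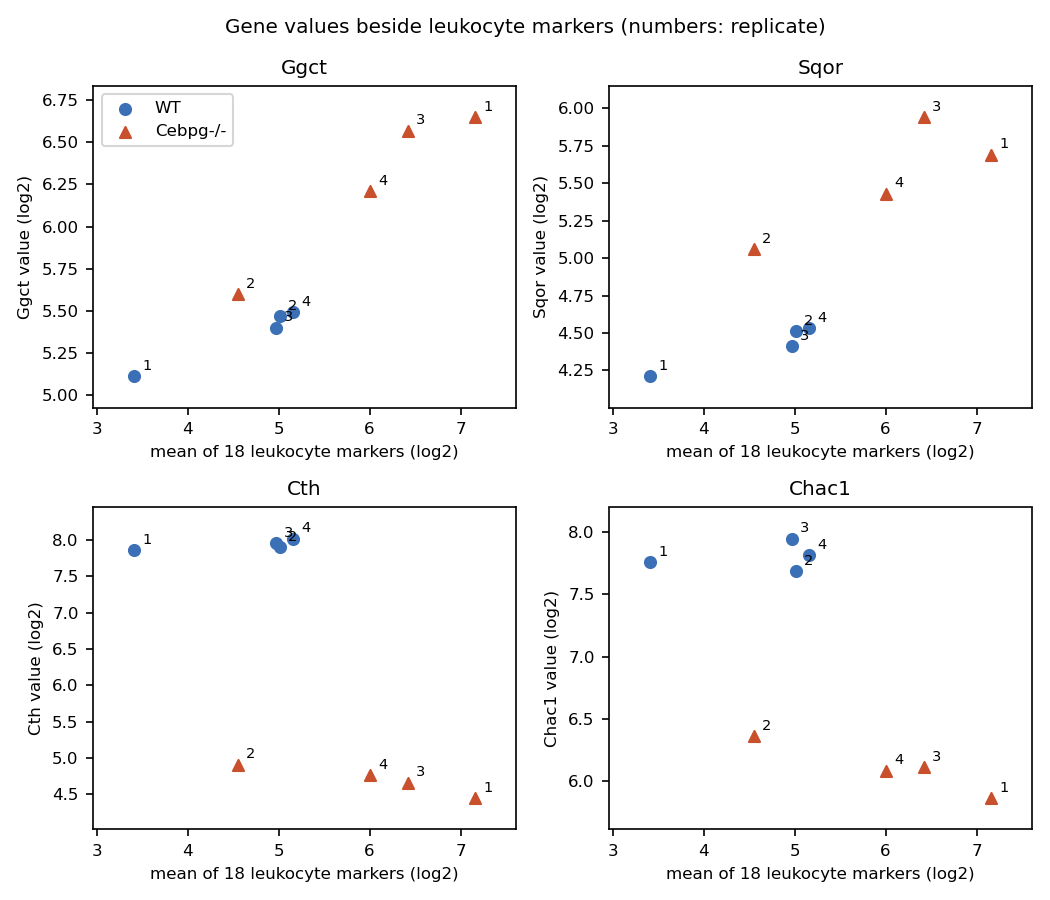
Log2 values of Ggct, Sqor, Cth and Chac1 (y axes) against the mean log2 value of 18 leukocyte markers (x axes), 1 point per array, with the replicate number beside it; circles are WT and triangles Cebpg-/-. Cebpg-/- replicate 2, at a marker mean of 4.55, is the only Cebpg-/- array within the WT range of 3.41 to 5.16, and there Ggct read 5.60 and Cth 4.91.

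Gamma-glutamyltransferases cleave glutathione outside the cell, and neither member passed. Ggt1, of the same family, was not analysed here, so this step was followed only in part. Ggt5, which also converts leukotriene C4, was dim on all of its 3 probe sets, the brightest of which had 51.2% of all probe sets dimmer. The brightest read 2.96, 2.95, 2.90 and 2.77 in WT and 2.74, 2.68, 2.73 and 2.74 in Cebpg-/-. The Cebpg-/- arrays were lower without overlap, but the change of -0.18 ± 0.06 (SE) did not pass (limma, adjusted p = 0.106), except without WT replicate 4 (-0.22, adjusted p = 0.0422). Its other probe sets changed by -0.17 and 0.02 (adjusted p = 0.277 and 0.892).

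Ggt7, a relative in the same family, read 4.32, 4.41, 4.61 and 4.25 in WT and 4.27, 4.17, 4.16 and 4.18 in Cebpg-/-. The groups overlapped, and the change of -0.20 ± 0.08 (SE) missed the threshold (limma, adjusted p = 0.153). The changes of Ggt5 and Ggt7 differed by 0.03 (two-sided exact permutation p = 0.8, adjusted 0.8 over 4 pairs).

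Other genes of these pathways were taken from a list of 37, of which 34 were analysed here. Of the 34, 2 fell and 4 rose, against 3.24% and 7.11% of all genes by the same rule, and 28 did not pass (median change 0.01). Without both WT replicate 1 and Cebpg-/- replicate 1, Suox alone of these 6 still passed, and Sqor lay at 0.99 (limma, adjusted p = 0.0625). The genes that fell belong to transport, and those that rose to sulfur oxidation, methionine synthesis and peptide breakdown. With so few calls no pattern by step is read from them, and whether the steps differ was not tested.

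In cystine and cysteine transport 2 of 6 genes fell: Slc3a2, given above, and Slc1a4, a transporter of small neutral amino acids that include cysteine. Slc1a4 read 6.60, 6.57, 6.70 and 6.72 in WT and 6.30, 6.37, 6.17 and 6.28 in Cebpg-/-, with a change of -0.37 ± 0.06 (SE; limma, adjusted p = 0.00936). Its dimmer probe sets changed by -0.23 and -0.29 without passing. With the leukocyte marker covariate Slc3a2 and Slc1a4 had changes of -0.32 and -0.35 that missed the threshold (limma, adjusted p = 0.132 and 0.116). Ctns, the lysosomal cystine exporter, and Slc1a1, a glutamate and cysteine transporter, changed by 0.19 and -0.11 and did not pass.

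In cysteine breakdown and sulfur oxidation 2 of 11 genes rose. Sqor, the mitochondrial enzyme that oxidises sulfide, read 4.21, 4.51, 4.41 and 4.53 in WT and 5.69, 5.06, 5.94 and 5.43 in Cebpg-/-. All Cebpg-/- arrays were higher, with replicate 2 the lowest of them, as for Ggct. The change was 1.11 ± 0.16 (SE; limma, adjusted p = 0.00467), and 0.77 with the leukocyte marker covariate (adjusted p = 0.0356). A dim probe set of Sqor changed by -0.07 and did not pass. Suox, sulfite oxidase, the last step to sulfate, read 4.44, 4.70, 4.48 and 4.26 in WT and 5.24, 5.13, 5.28 and 5.09 in Cebpg-/-. Its groups were tight and apart, with a change of 0.71 ± 0.09 (SE; limma, adjusted p = 0.00224), and 0.66 with the covariate (adjusted p = 0.0388). Mpst, which makes sulfide from mercaptopyruvate, and Csad, an enzyme of taurine synthesis, had changes of 0.39 and 0.16 that missed the threshold (limma, adjusted p = 0.0932 and 0.211).

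In the methionine cycle 1 of 9 genes rose. Mtrr, the reductase that keeps methionine synthase active, went from 6.25 ± 0.06 to 6.60 ± 0.09 (SD, n = 4), a change of 0.34 (limma, adjusted p = 0.0136) that was 0.25 and did not pass with the leukocyte marker covariate (adjusted p = 0.189). Gnmt and Mat2b, a methyltransferase and a subunit of methionine adenosyltransferase, changed by -0.19 and -0.17 and did not pass. In peptide breakdown 1 of 8 genes rose: Ggact, a cyclotransferase of gamma-glutamylamines, changed by 0.23 (limma, adjusted p = 0.0411) and, among the fits that leave out 1 array, passed only without WT replicate 4. It also missed the threshold after quantile normalization (0.16, adjusted p = 0.106), with an intensity trend and robust variances (0.0524) and with the leukocyte marker covariate (0.17, adjusted p = 0.378). Without WT replicate 1, 2 or 3 its adjusted p was 0.117, 0.0628 and 0.0957, and without Cebpg-/- replicate 1, 2, 3 or 4 it was 0.118, 0.0635, 0.0855 and 0.0732. Cndp2, which splits cysteinylglycine, went from 7.65 ± 0.14 in WT to 8.03 ± 0.19 (SD, n = 4) and missed the threshold on its brightest probe set (0.38, limma adjusted p = 0.0539), while the other one rose (0.43, adjusted p = 0.0276). Dpep1, another dipeptidase, ran from 3.80 to 4.29 in WT and from 2.96 to 4.36 in Cebpg-/-, and its change of -0.52 did not pass (limma, adjusted p = 0.247).

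**Figure D4:**
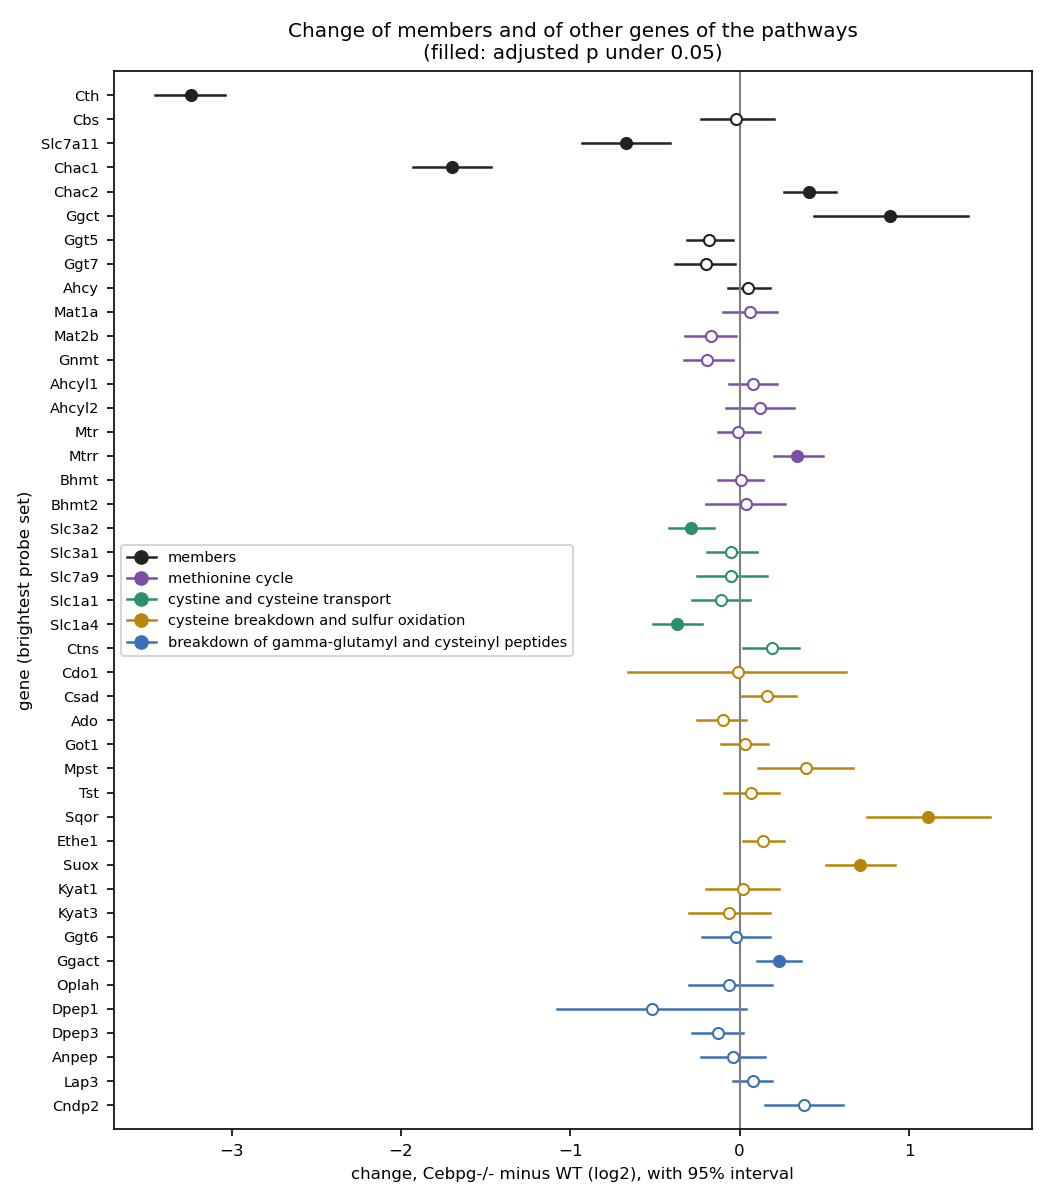
Change from WT to Cebpg-/- (x axis, log2) with its 95% interval from limma for the brightest probe set of 9 members and 34 other genes of the pathways (y axis), coloured by step; filled points passed at an adjusted p under 0.05. Cth and Chac1 lie farthest to the left, and Sqor, Ggct and Suox farthest to the right.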

How the data were processed

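Total RNA of 4 WT and 4 Cebpg-/- samples, grouped by their titles, was labelled with biotin and hybridised to 1 array each. The deposited values are log2 expression values from RMA, which the authors ran per the submitters' processing notes. No source used here gives its version or settings. RMA corrects background, normalizes the arrays against each other and joins each set's probes into 1 value, and it compresses changes of dim probe sets. The values ran from 0.53 to 13.05, and the number of arrays limits the precision.

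Of 45101 probe sets 64 controls were left out. The platform's annotation names 1 gene for 34945 of the rest, several for 932 and none for 9160; 34741 symbols were brought up to date by Entrez number with a RefSeq table of GRCm38.p6. For counts by gene, the probe set with the highest mean stands for each of 18193 genes. All probe sets were fitted with lmFit and eBayes of limma 3.58.1 (R 4.3.3), with no trend and genotype alone as a term, with p-values adjusted over all of them. The fit was tested on simulated data. Gene pairs were compared by two-sided exact permutation tests over samples, adjusted over 4 pairs. The named genes are all members, Cebpg, Slc3a2, every gene of the pathway list that passed and at most 2 per step that did not. Vim, Col1a1, Lum and Cd14 were named after their values were seen. Members, lists, rules and alternatives were chosen with earlier results of these data known.

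Of 6 epithelial markers 1 was lower in Cebpg-/- (Epcam), and of 6 endothelial markers limma called 0, with 2 at an unadjusted p under 0.05. The alternatives tried were a replicate block, quantile normalization, subtracted array medians, omission of dim probe sets, an intensity trend with robust variances, adjustment over 1 probe set per gene, averaged probe sets of a gene, the leukocyte marker covariate, and omission of arrays.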

Additional observations from a re-analysis of the deposited data

Results flagged for a closer look

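Among 42 groups of 4 arrays, those of 21 probe sets in each genotype, 1 held an array far from the other 3. For the second brightest Ggt5 probe set, Cebpg-/- replicate 4 read 2.38 where the other Cebpg-/- arrays ran from 2.63 to 2.67, and the gap made up 0.87 of the group's range. Chance alone marks about 1 in 20 such groups.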

How the results depend on the processing

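The falls of Cth, Chac1 and the dimmer Slc7a11 probe set passed under every alternative that was run on them. With the leukocyte marker covariate 3 member probe sets and 0 pathway genes were lower, and 0 and 2 higher. Without both WT replicate 1 and Cebpg-/- replicate 1 the counts were 3 and 0 lower, and 0 and 1 higher. Limma calls over all probe sets fell too: from 2.78% lower and 4.82% higher to 0.435% and 0.677%, and to 0.471% and 0.699%. By an unadjusted p under 0.05, 2 and 2 member probe sets were higher and 2 and 3 pathway genes lower in these fits. Over all probe sets and genes this was counted only in the main fit (10464 of 45037 and 5161 of 18193, either direction). Such counts alone say little. Same-numbered replicates of the genotypes did not deviate together (correlations from -0.27 to 0.13, and not every sample correlated best with its own number), so the numbers are not taken to pair samples. With the replicate block 4 member probe sets were lower and 1 higher, and 1 pathway gene lower and 4 higher; the dimmer Cbs probe set (adjusted p = 0.0964), Ggct (0.0623), Slc3a2 (0.0714) and Ggact (0.121) no longer passed. With an intensity trend and robust variances 4 members were lower and 1 higher, and the calls of Ggct (adjusted p = 0.0559) and the dimmer Cbs probe set (0.0548) were lost. Adjusted over 1 probe set per gene, 3 member probe sets were lower, since this leaves 1 probe set per gene. Leaving out 1 array at a time gave 4 to 6 lower and 1 to 2 higher members, and 1 to 3 lower and 3 to 5 higher pathway genes. The share of all probe sets called was not counted for the replicate block, the trend, 1 probe set per gene or single left-out arrays. Shifts in these counts therefore cannot be told from shifts over all probe sets.

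Changes near 0 turned sign without a call: the brighter Cbs probe set was at 0.02 after subtracting medians, 0.01 with the covariate, 0.00 without both arrays, and 0.02, 0.05 and 0.01 without WT replicate 1 or 3 or Cebpg-/- replicate 4 (-0.11 to 0.05 over the 8 fits); the third Ggct probe set was at 0.01 after quantile normalization, and the third Ggt5 probe set at -0.02 without Cebpg-/- replicate 3 (-0.02 to 0.05). Ggt5 against Ggt7 was at -0.04 without WT replicate 3.

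When the probe sets of a gene were averaged, 3 pairs passed, each at an exact permutation adjusted p = 0.0381. They were Cth against Cbs (-3.10), Slc7a11 against Slc3a2 (-0.36) and Chac1 against Chac2 (-2.11). Cth against Cbs and Chac1 against Chac2 already had the smallest possible p in the main test. Their adjusted p fell, here and without WT replicate 2, only because Slc7a11 against Slc3a2 reached it too. With the replicate block, limma also called these 3 (-3.23, -0.39 and -2.11). That fit shared variances among only 4 pairs and used replicate numbers as pairs, so it is no added evidence. When 1 array was left out, these 3 pairs ran from -3.30 to -3.11, -0.46 to -0.30 and -2.23 to -2.01. Ggt5 against Ggt7 ran from -0.04 to 0.08. The first 3 passed without WT replicate 2 (exact permutation adjusted p = 0.0381). The cause of lost calls was not tested, except that a probe set left out of a fit cannot be called in it.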
